A study of Mus musculus with 5 samples.

Results

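Aminoacyl-tRNA synthetases, the enzymes that load each amino acid onto its tRNA, were followed across all libraries of the series. The members were 36 genes named by symbol, 20 cytosolic and 16 mitochondrial, and 35 of them (19 cytosolic and 16 mitochondrial) matched a symbol among the 55291 in the count files. The symbol Mars had no exact match. The files list Mars1, for which RefSeq gives Mars as a synonym, and its values are shown beside the members without being counted among them. All 35 matched members passed the filter on low counts, as did 17062 genes in all. The libraries came from mouse bone marrow cells labelled as monocytes, from 3 wild-type samples (replicates 1, 2 and 3) and 2 samples labelled Tet2 mutant (replicates 2 and 3). Tet2 encodes an enzyme that oxidises methylcytosine in DNA. The kind of Tet2 mutation, the strain, the age and the cell isolation were not given in the sources used here. Nothing in the labels says that the samples came from separate mice, so p-values cover only how far these samples scatter, which may be technical scatter.

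Protein synthesis in the cytosol and in mitochondria draws on separate pools of charged tRNA. Most amino acids therefore have a pair of nuclear genes, of which the mitochondrial form carries the suffix 2. Gars and Kars are known to supply both compartments from the same gene, and mitochondria have no glutaminyl-tRNA synthetase of their own: Ears2 charges the glutamine tRNA with glutamate, which the GatCAB amidotransferase then converts. Several cytosolic enzymes sit in a large complex on the scaffold proteins Aimp1, Aimp2 and Eef1e1. Many cytosolic synthetase genes are known targets of Atf4, the transcription factor of amino acid shortage, and Wars is known as a gene induced by interferon-gamma.

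Total counts ran from 53789308 to 72414875 in the wild-type libraries and were 17459808 and 60508381 in Tet2-mutant replicates 2 and 3. Levels are CPM, counts scaled to 1e6 per library after TMM normalization (a library factor of edgeR, 1.14 to 1.17 in the wild type, 0.723 in mutant replicate 2 and 0.896 in replicate 3). A detection floor of 3 counts corresponds to 0.0358 to 0.238 CPM, below every member in every library. Tet2 itself read 11.9, 9.77 and 10.6 CPM in wild-type and 5.31 and 15.6 CPM in mutant libraries, which checks no label because the kind of mutation is unknown. All 8 monocyte markers were detected, with Ly6c2 at 351 to 500.3 CPM in wild-type and 384 and 165 CPM in mutant libraries. Of these markers 3 were called higher (Ms4a6c, Fcgr1 and Csf1r), and the log2 fold changes of all 8 ran from -1.38 to 4.23, with Csf1r at 102 to 137 against 521 and 332 CPM (edgeR adjusted p = 0.0105). Genes of other cells were also present. All 9 macrophage markers were called higher, with a summed level of 555 to 698 CPM in wild-type and 8384 and 7496 CPM in mutant libraries. For 12 pancreatic acinar markers the sums were 40.2 to 56.4 against 650.1 and 1685 CPM, with Amy2a5 and Ptf1a at 0 counts in all 5 libraries. For 8 B cell markers they were 137 to 678 against 959 and 7239.5 CPM. For 12 neutrophil markers they were 48789 to 61172 against 53441 and 23314 CPM, where the sum of mutant replicate 2 lay inside the wild-type range. By single gene, 11 of these 12 had a log2 fold change below 0, against 8871 of all 17062 tested genes. The median neutrophil marker lay at -0.66 and -2.94 (log2) from the wild-type mean in mutant replicates 2 and 3. Both mutant libraries were below the wild type for 8 of them, against 33.3% of all tested genes. The part of these cells in the synthetase values was not tested, and in bulk RNA fewer cells of a type and less RNA per cell cannot be told apart.

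Few synthetase transcripts separated the genotypes. Cars and Yars, which charge cysteine and tyrosine tRNAs in the cytosol, and Sars2, which charges serine tRNA in mitochondria, were lower in the mutant. No member was called higher by edgeR. The 3 calls were 8.57% of the 35 members, against 15% of all tested genes (quasi-likelihood test in edgeR, Benjamini-Hochberg adjustment, threshold 0.05), of which 10.6% were higher and 4.43% lower. At an unadjusted p under 0.05, 5 members were higher and 4 lower, against 39.2% of all tested genes in either direction. DESeq2 called 2 members higher (Lars2 and Yars2) and 4 lower (Cars, Yars, Aars2 and Sars2), and limma-voom called 1 higher (Lars2) and 3 lower (Cars, Aars2 and Sars2). Over all genes DESeq2 called 2972 higher and 2137 lower, and limma-voom 1837 and 1365. Both mutant libraries lay on the same side of the wild-type range for 16 members, or 45.7%, and for 56.2% of all tested genes. Of these members 7 lay above and 9 below, against 22.9% above and 33.3% below over all genes. The median log2 ratio of mutant to wild type was -0.13 for cytosolic members, 0.31 for mitochondrial members and -0.075 for all tested genes. In simulated data the test called 1 of 50 genes changed 2-fold and 21 of 50 changed 4-fold. Fewer genes were changed there than were called here, which makes the adjusted threshold stricter. The simulation therefore does not measure how many 2-fold changes were missed here, where Yars was called at 2.10-fold lower. A member that was not called may still have changed near 2-fold.

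**Figure D1:**
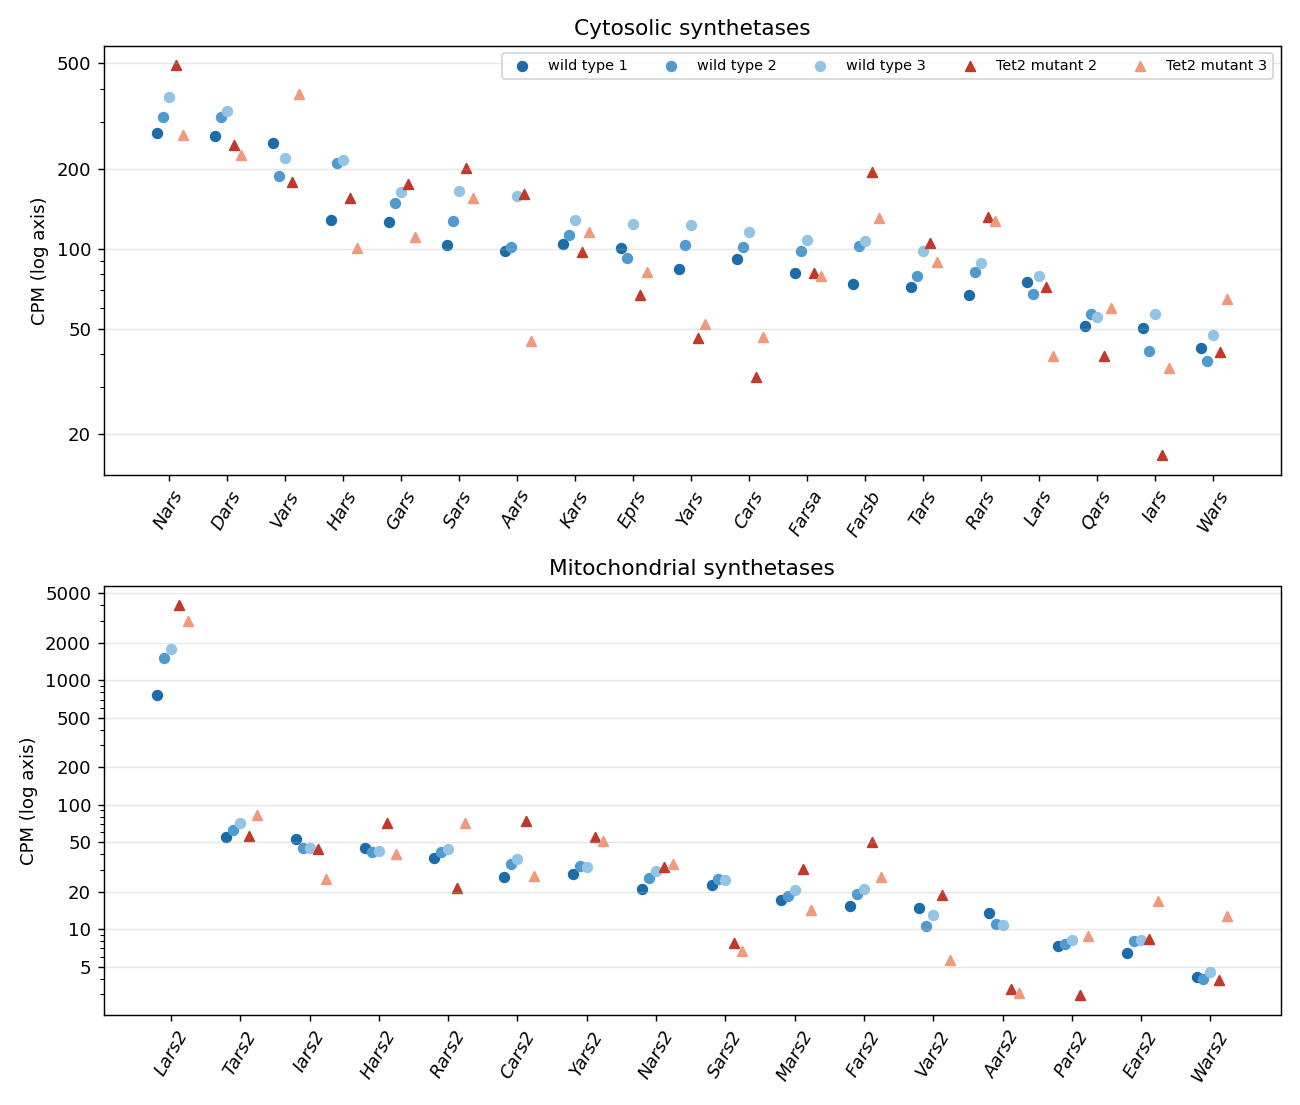
Level of each synthetase gene in each of the 5 libraries, in CPM on a log axis, with cytosolic and mitochondrial genes drawn apart. Circles are wild-type and triangles Tet2-mutant libraries. Lars2 stands apart at 756 to 4009 CPM, and Cars, Yars, Sars2 and Aars2 have both triangles below all circles.

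The promoter stretches below are those of the called Sars2, the abundant Lars2, and Farsb and Gars. Farsb and Gars were not called and are shown because they carry an E-box and a CARE element. The called Cars and Yars are not shown. Sequences are from RefSeq (GRCm38.p6), where 26 of the 36 symbols had an entry. Each is the run directly before the RefSeq start, 5′ to 3′ on the gene's strand, up to the nearest annotated exon and at most 150 bases long. Capitals mark 3 motifs searched on both strands: the CARE element that Atf4 binds (TGATGNAA), the E-box (CACGTG) and the CCAAT box (CCAAT). Sars2, at chr7:28741821-28741967 (plus strand), holds 3 inverted CCAAT boxes. Gars, at chr6:55037851-55038000 (plus strand), holds an inverted CARE element at -30 from the start. Farsb, at chr1:78488898-78489047 (minus strand), holds an E-box at -39. Lars2, at chr9:123366777-123366926 (plus strand), holds none of the 3.
Sars2: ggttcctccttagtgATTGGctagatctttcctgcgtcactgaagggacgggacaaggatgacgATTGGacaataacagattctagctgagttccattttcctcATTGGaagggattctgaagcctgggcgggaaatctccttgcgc
Gars: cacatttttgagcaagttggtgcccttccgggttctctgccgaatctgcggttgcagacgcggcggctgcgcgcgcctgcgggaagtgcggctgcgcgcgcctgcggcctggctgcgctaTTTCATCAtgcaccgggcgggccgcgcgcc
Farsb: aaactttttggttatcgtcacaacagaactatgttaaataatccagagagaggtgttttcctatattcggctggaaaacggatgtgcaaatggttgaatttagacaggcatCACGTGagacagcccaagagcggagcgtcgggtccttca
Lars2: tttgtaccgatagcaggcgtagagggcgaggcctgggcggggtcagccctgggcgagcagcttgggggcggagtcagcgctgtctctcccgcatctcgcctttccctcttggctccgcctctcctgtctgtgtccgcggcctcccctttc

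Over the full 250 bases before the start, 3 of the 26 members held a CARE element (Gars, Aars and Tars), against 3.53% of 27025 promoters. An E-box was in 3 (Farsb, Aars and Iars), against 6.05%, and a CCAAT box in 11, against 34.5%. The interferon motif ISRE was in 1 (Qars), against 3.04%, and the GAS motif (TTCNNNGAA) in 3 (Nars2, Aars and Kars), against 7.18%. None of the 14 mitochondrial promoters held a CARE element or an E-box in this window. A match describes these letters alone. No entry was matched for Cars, Hars, Lars, Mars, Nars, Rars, Vars, Wars, Hars2 or Pars2.

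Cars (chromosome 7, 143557230 to 143600090, GRCm38) measured 91.6, 101 and 116 CPM across wild-type replicates 1 to 3 against 32.96 and 46.4 CPM for Tet2-mutant replicates 2 and 3. Both mutant libraries were well below the lowest wild-type library. Means were 103 ± 12.04 (SD, n = 3) and 39.7 ± 9.48 CPM (SD, n = 2), a log2 fold change of -1.37 ± 0.29 (SE; edgeR adjusted p = 0.0277). Yars (chromosome 4, 129189760 to 129219607) measured 83.8, 103 and 123 CPM in wild-type against 46.1 and 52.03 CPM in mutant libraries, again without overlap. Its log2 fold change was -1.07 ± 0.28 (SE; edgeR adjusted p = 0.045), and it missed the threshold with RLE scaling (edgeR adjusted p = 0.051) and with limma-voom (adjusted p = 0.0543).

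Sars2 (chromosome 7, 28741992 to 28753871) measured 22.7, 25.1 and 24.6 CPM in wild-type against 7.68 and 6.68 CPM in mutant libraries. The libraries of each genotype were close together and the groups far apart. It was 3.37-fold lower, with a log2 fold change of -1.75 ± 0.39 (SE; edgeR adjusted p = 0.0339). Aars2, the mitochondrial alanyl enzyme (chromosome 17, 45506841 to 45520843), had a similar picture with 13.5, 11.1 and 10.8 CPM against 3.33 and 3.08 CPM. Its log2 fold change of -1.88 ± 0.54 (SE) missed the threshold (edgeR adjusted p = 0.0548). Aars2 passed it with DESeq2, limma-voom, upper-quartile or total count scaling and a filter of 1 CPM in 3 libraries. It also missed with RLE scaling (edgeR adjusted p = 0.058), no filter (0.0715) and the replicate block (0.534). Without wild-type replicates 1, 2 and 3 in turn the edgeR adjusted p was 0.247, 0.266 and 0.243.

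The calls of Cars, Yars and Sars2 were lost when any wild-type library was left out. Without wild-type replicates 1, 2 and 3 in turn, the edgeR adjusted p was 0.107, 0.123 and 0.14 for Cars, 0.109, 0.194 and 0.232 for Yars and 0.134, 0.196 and 0.18 for Sars2. In those fits 6, 18 and 14 of all genes were called lower. All 3 were called lower without Tet2-mutant replicate 2 and also without replicate 3, fits in which 5958 and 3300 of all genes were called lower. With the replicate number as a block none was called (adjusted p = 0.0661, 0.176 and 0.327).

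Sars2 shares its start region with Mrps12, a protein of the mitochondrial ribosome, which is transcribed in the opposite direction from a start 172 bases away. Mrps12, named after its values were seen, moved the other way, at 27.1, 51.4 and 46.3 CPM in wild-type against 124 and 108 CPM in mutant libraries (log2 fold change 1.48 ± 0.33 SE, edgeR adjusted p = 0.0326). The stretch printed for Sars2 lies between these starts. The Mrps12 call was lost with total count scaling (adjusted p = 0.0607), with the replicate block (adjusted p = 0.174), and without wild-type replicate 1 (adjusted p = 0.0519) or 3 (adjusted p = 0.0598).

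**Figure D2:**
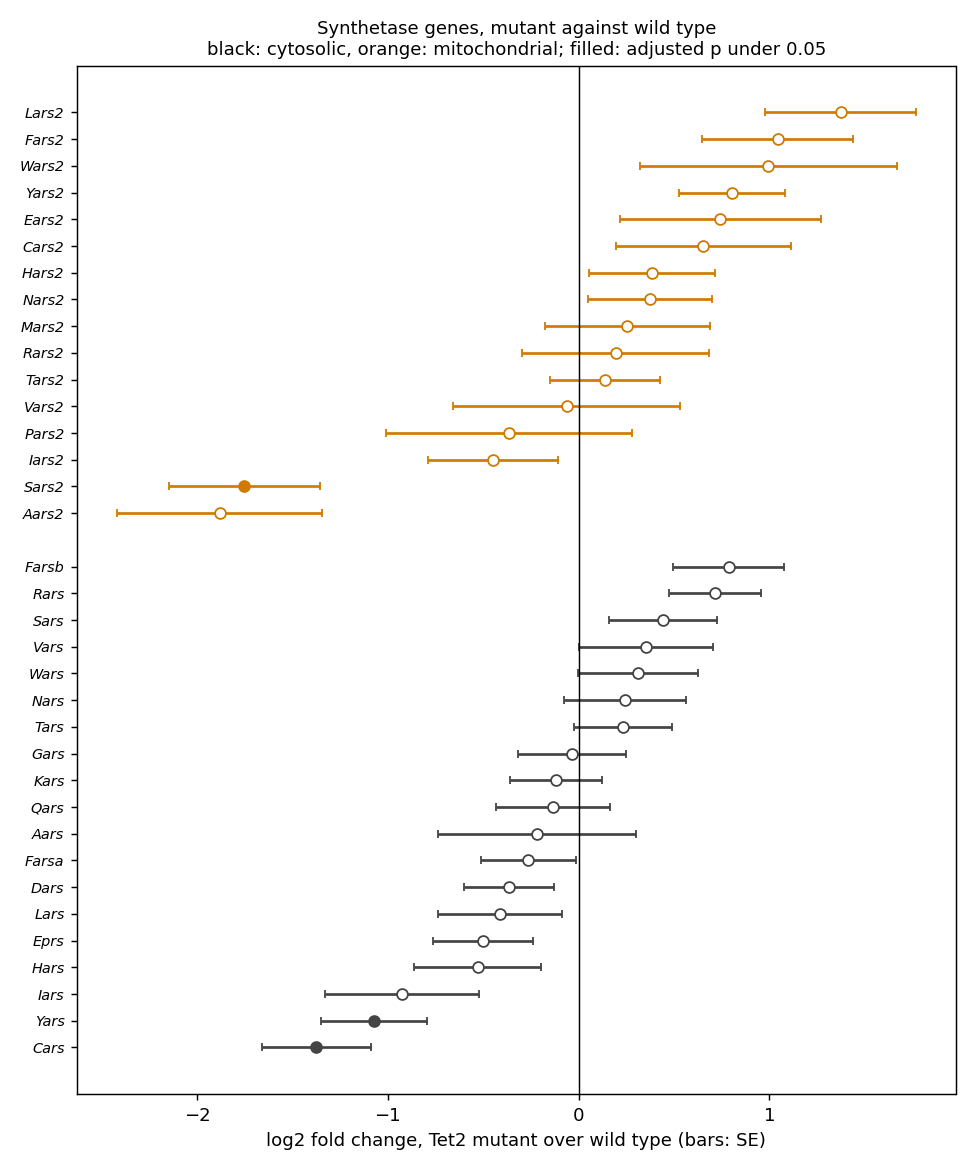
Log2 fold change of the mutant against the wild type for the 35 members, with the SE as bars, cytosolic and mitochondrial genes in separate colours. Filled points passed an adjusted p of 0.05; these are Cars (-1.37), Yars (-1.07) and Sars2 (-1.75).

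Lars2, which charges leucine tRNA in mitochondria (chromosome 9, 123366927 to 123462666), was the most abundant member per length in every library. It measured 756, 1504 and 1800.0 CPM in wild-type against 4009 and 2999 CPM in mutant libraries. Both mutant libraries were above the wild type, and wild-type replicates 1 and 3 differed from each other by more than 2-fold. The log2 fold change was 1.37 ± 0.39 (SE; edgeR adjusted p = 0.0553), short of the threshold. It was called higher with DESeq2 (adjusted p = 0.0256), limma-voom (adjusted p = 0.0351), no filter and without wild-type replicate 3 (edgeR adjusted p = 0.0489). It was not called with upper-quartile, RLE or total count scaling (edgeR adjusted p = 0.0695, 0.0555 and 0.109). The filter of 1 CPM in 3 libraries (0.0643) and the replicate block (0.139) gave no call either. Nor was it called without wild-type replicate 1 (edgeR adjusted p = 0.0626) or 2 (0.0805). Without Tet2-mutant replicates 2 and 3 in turn the log2 fold change was 1.15 and 1.56. Lars2 held 67.4% to 81.4% of the summed CPM of mitochondrial members in the wild type and 89.3% and 87.6% in the mutant. The mitochondrial ribosomal RNA mt-Rnr2 measured 278, 494 and 408 against 703 and 475 CPM (adjusted p = 0.212). Of 11160 distinct 31-base words in Lars2 transcripts, 0.923% also occurred in transcripts of other genes, and 0 in mt-Rnr1 or mt-Rnr2. The nuclear ribosomal RNA repeat was not analysed here, so whether reads from it were counted at Lars2 was not tested. The level, the share and the partner ratio of Lars2 all rest on these counts.

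Divided by the length of its annotated exons, Lars2 was at 122 ± 48.5 CPM per kb in the wild type (SD, n = 3). Next in level per length came cytosolic enzymes. Hars, Nars and Dars followed at 75.4 ± 20.04, 73.4 ± 11.6 and 69.7 ± 7.56 CPM per kb, which do not differ beyond their spread, and then Gars at 46.9 ± 6.01 and Vars at 39.1 ± 5.57. Wars2, the mitochondrial tryptophanyl enzyme, was the lowest at 0.709 ± 0.044 CPM per kb. The median cytosolic member was at 17.9 to 23.7 CPM per kb in wild-type and at 17.8 and 18.8 in mutant libraries, and the median mitochondrial member at 3.30 to 4.64 and at 4.77 and 3.46. Lengths were the union of all annotated exons, so genes with long, rarely used exons read low.

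Among cytosolic members that were not called, Farsb and Rars had the highest fold changes. Farsb, the beta subunit of the phenylalanyl enzyme, measured 73.6, 102 and 107 CPM in wild-type against 195 and 131 CPM in mutant libraries (log2 fold change 0.79 ± 0.29 SE, edgeR adjusted p = 0.0956). Its partner subunit Farsa measured 81.3, 98.2 and 108 against 80.6 and 78.9 CPM (log2 fold change -0.26 ± 0.25, edgeR adjusted p = 0.444). The mutant libraries thus lay above the wild type for one subunit and below it for the other, and neither passed the test. Rars, the arginyl enzyme, measured 66.8, 81.6 and 88.2 against 131 and 128 CPM without overlap (log2 fold change 0.71 ± 0.24, edgeR adjusted p = 0.0783).

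Of the matched enzymes of the multi-synthetase complex, 1 (Rars) had a log2 fold change above 0 and 6 had one below 0. None of its 7 matched enzymes was called by edgeR, limma-voom or DESeq2, with 1 higher (Rars) and 0 lower at an unadjusted p under 0.05, and their median log2 fold change was -0.37. For the 12 cytosolic enzymes outside it, 6 lay above 0 and 6 below, the median was 0.098 and 2 were called lower. Over all tested genes 8191 lay above 0 and 8871 below. Iars, the isoleucyl enzyme, measured 50.4, 41.2 and 56.8 CPM in wild-type against 16.6 and 35.4 CPM in mutant libraries (log2 fold change -0.92 ± 0.40, edgeR adjusted p = 0.135). Dars, the aspartyl enzyme, and Eprs, which charges glutamate and proline tRNAs, also had both mutant libraries below the wild type. Dars measured 267 to 330.0 against 246 and 225 CPM and Eprs 92.4 to 123 against 67.1 and 81.9 CPM. Mars1, the methionyl enzyme, measured 128, 119 and 148 against 84.5 and 93.8 CPM (log2 fold change -0.56 ± 0.24, edgeR adjusted p = 0.128).

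The 3 scaffold genes were not called by edgeR, DESeq2 or limma-voom, with 1 higher at an unadjusted p under 0.05. Aimp1 measured 23.8 to 37.8 CPM in wild-type against 62.3 and 54.3 CPM in mutant libraries (adjusted p = 0.0902), and Aimp2 38.8 to 54.3 against 46.3 and 95.04 CPM (adjusted p = 0.284). By catalytic class, 2 of 17 class I and 1 of 17 class II enzymes were called, all lower, with Eprs, which joins an enzyme of each class, left out.

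Wars, the cytosolic tryptophanyl enzyme (chromosome 12, 108860030 to 108894174), was not called, while most interferon-gamma response genes were. It measured 42.3, 37.9 and 47.5 CPM in wild-type libraries against 40.8 and 64.7 CPM for Tet2-mutant replicates 2 and 3. Replicate 2 lay within the wild-type range and replicate 3 above it. The log2 fold change was 0.31 ± 0.32 (SE; 95% interval -0.43 to 1.05, edgeR adjusted p = 0.478), and it was -0.17 with total count scaling and -0.067 without Tet2-mutant replicate 3. Of 20 interferon-gamma response genes 18 were called higher and 0 lower by edgeR, DESeq2 and limma-voom alike, against 10.6% of all genes called higher by edgeR. The list median was 2.38. Called rises ran from 1.29 (Tapbp, which helps load peptides on class I molecules) to 6.03 (Cxcl9, a chemokine) on the log2 scale. Psmb8, a subunit of the immunoproteasome, measured 204, 235 and 236 against 1821 and 1415 CPM (edgeR adjusted p = 0.00156). Ifng, the gene of interferon-gamma itself, measured 1.88, 0.942 and 1.22 against 8.16 and 15.2 CPM (log2 fold change 3.12 ± 0.66, edgeR adjusted p = 0.0291), a call lost without each wild-type replicate in turn (adjusted p = 0.1, 0.12 and 0.109) and with the replicate block (adjusted p = 0.28). The upper end of the interval for Wars is below the smallest called rise, a bound that the calling threshold helps to set. The interval overlaps that of Tapbp (0.67 to 1.90) and holds the log2 fold change of Nlrc5 (0.94), which was not called. The difference between the genes was not tested.

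**Figure D3:**
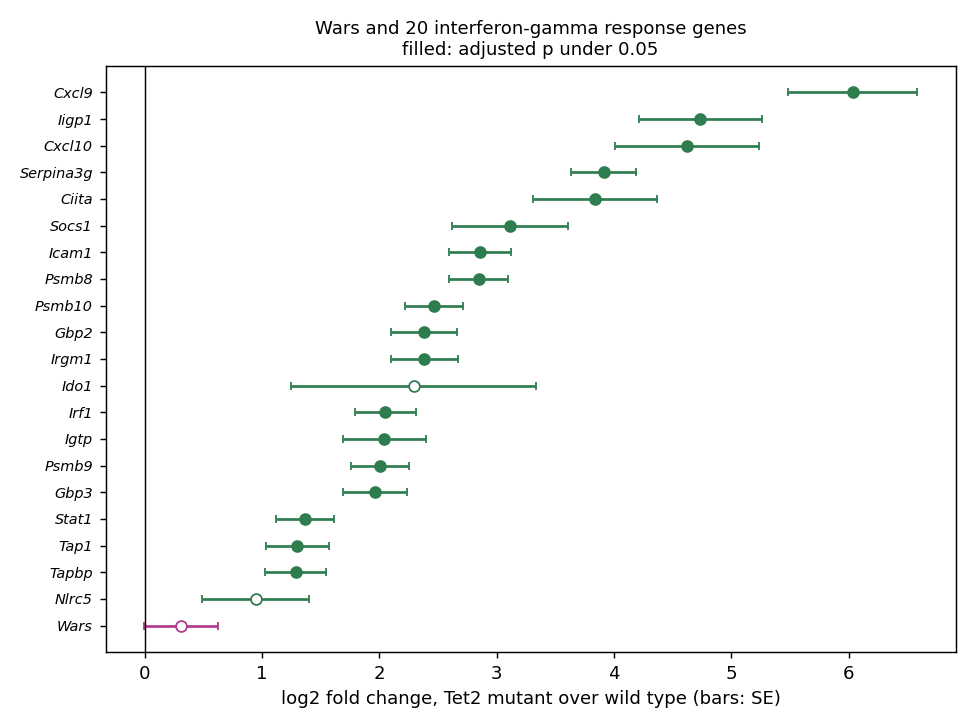
Log2 fold change of the mutant against the wild type for Wars and 20 interferon-gamma response genes, with the SE as bars; filled points passed an adjusted p of 0.05. Wars lies at 0.31, below each of the 20, of which Ido1 and Nlrc5 did not pass.

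The Tet2-mutant libraries differed between themselves, at members and over all tested genes. Their levels were more than 2-fold apart for 10 of 35 members (28.6%), against 45.9% of all tested genes with at least 10 counts in both libraries. Between wild-type libraries this held for at most 1 member, Lars2. The shares were not matched for level, since the lowest member in mutant replicate 2, Pars2, had 37 counts. They are therefore not read as a trait of synthetases. Aars, the cytosolic alanyl enzyme, was 3.58-fold higher in replicate 2, at 160.4 and 44.9 CPM in replicates 2 and 3, with 97.6, 102 and 158 CPM in the wild type. Vars2 was 3.34-fold and Cars2 2.81-fold higher in replicate 2, while Rars2 was 3.36-fold, Wars2 3.31-fold and Pars2 3.03-fold higher in replicate 3. When only replicate 3 was set against the wild type, 6 members were called higher and 8 lower, and with only replicate 2 they were 7 and 7. Calls were many in these fits, with 4904 of all genes higher and 5958 lower for replicate 3, and 3781 and 3300 for replicate 2. Rars and Yars2 were called higher in both of these fits, and Cars, Yars, Aars2 and Sars2 lower. The single mutant library was there assumed to vary like the wild type.

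Targets of Atf4 were compared because many cytosolic synthetase genes respond to it. Atf4 measured 115, 162 and 192 CPM in wild-type against 167 and 110.2 CPM in mutant libraries (log2 fold change -0.18 ± 0.32, edgeR adjusted p = 0.695). Of 27 tested genes of the amino acid response 3 were called higher and 1 lower, near the 10.6% and 4.43% of all tested genes, with a median log2 fold change of -0.00047. DESeq2 called 6 and 3, and limma-voom 3 and 3. The higher genes were Nupr1, a stress-induced chromatin protein, Eif4ebp1, an inhibitor of translation initiation, and Atf3, a transcription factor, with log2 fold changes of 3.71 ± 0.36, 1.24 ± 0.28 and 1.63 ± 0.38 (edgeR adjusted p = 0.00189, 0.0355 and 0.0364). Atf5, a related factor, was lower, at 0.442, 0.965 and 1.32 CPM against 0.0792 and 0.0185 CPM, where the mutant libraries were under the floor of 3 counts. The call of Nupr1 held under every alternative run. Those of Atf3 and Atf5 were lost without each wild-type replicate in turn (edgeR adjusted p = 0.106, 0.0922 and 0.0719 and 0.108, 0.124 and 0.12) and that of Atf5 also without Tet2-mutant replicate 3 (adjusted p = 0.0585), and that of Eif4ebp1 without wild-type replicate 1 (adjusted p = 0.0681) or 3 (adjusted p = 0.0649). With total count scaling the calls of Eif4ebp1 (adjusted p = 0.0657) and Atf3 (adjusted p = 0.0742) were lost, and with upper-quartile scaling that of Atf3 (adjusted p = 0.0559). With the replicate block the adjusted p of Atf3, Atf5 and Eif4ebp1 was 0.138, 0.396 and 0.149. Asns, the asparagine synthetase gene and a standard readout of Atf4, was picked after its values were seen. It measured 123, 189 and 255 against 196 and 44.5 CPM and was not called (edgeR adjusted p = 0.434). Genes of the list differed in which of the mutant libraries read lower. The list of 9 eIF2 kinases, phosphatases and partners held no call by edgeR, with 2 higher and 1 lower at an unadjusted p under 0.05, 1 higher by DESeq2 and 1 lower by limma-voom.

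Other steps that act on charged tRNA held called genes. Of 9 genes for editing and tRNA-dependent amino acid steps 3 were called higher and 0 lower, against 10.6% and 4.43% of all tested genes, with a median log2 fold change of 1.42. DESeq2 called 6 higher and limma-voom 1. Mtfmt, which formylates the initiator methionyl-tRNA of mitochondria, measured 15.1, 17.4 and 11 CPM in wild-type against 56.6 and 39.04 CPM in mutant libraries (log2 fold change 1.72 ± 0.37, edgeR adjusted p = 0.0292). Gatc, a subunit of the amidotransferase that completes glutaminyl-tRNA after Ears2, measured 26.4, 24.2 and 29.1 against 95.2 and 47.03 CPM (log2 fold change 1.42 ± 0.36, edgeR adjusted p = 0.0433). Pstk, which phosphorylates seryl-tRNA on the way to selenocysteine, measured 7.57, 10.2 and 8.78 against 67.97 and 19.6 CPM (log2 fold change 2.30 ± 0.54, edgeR adjusted p = 0.0365). All 3 were higher in replicate 2 than in replicate 3. Each call was lost without wild-type replicates 1, 2 and 3 in turn (edgeR adjusted p = 0.0849, 0.0614 and 0.0782 for Mtfmt, 0.0994, 0.0897 and 0.0769 for Gatc and 0.107, 0.068 and 0.0762 for Pstk) and with the replicate block (adjusted p = 0.173, 0.268 and 0.186). Total count scaling ended the calls of Mtfmt (adjusted p = 0.0506) and Gatc (adjusted p = 0.0809), limma-voom those of Gatc (adjusted p = 0.0547) and Pstk (adjusted p = 0.0598), and the filter of 1 CPM in 3 libraries that of Gatc (adjusted p = 0.0502). Ears2 measured 6.43, 7.96 and 8.13 against 8.32 and 16.8 CPM and was not called (adjusted p = 0.313).

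The factors that carry translation onward were not called. By edgeR, DESeq2 and limma-voom, 0 of 8 cytosolic elongation and termination factors and 0 of 10 mitochondrial translation factors passed, with 1 of each higher and 0 lower at an unadjusted p under 0.05. Eef1a1, which brings charged tRNA to the ribosome, measured 975 to 1257 CPM in wild-type against 1858 and 1709 CPM in mutant libraries (adjusted p = 0.109). Genes of S phase, a measure of dividing cells, had 3 of 18 called lower by edgeR, against 4.43% of all genes, 7 by DESeq2 and 13 by limma-voom. Their median log2 fold change was -1.37, and their summed level was 4706 to 6249 against 3546 and 1088 CPM. The part of dividing cells in the synthetase values was not tested.

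Partner genes were compared within each library as the ratio of mitochondrial to cytosolic counts, which library scaling does not alter. For 12 pairs of members the median change of the log2 ratio from wild type to mutant was 0.33, with 7 pairs up and 5 down. Both mutant libraries lay on the same side of the wild-type range for 5 of the 12 pairs. The share among pairs of other genes was not computed. For levels of single genes it was 56.2% of all tested genes, so the 5 pairs are not read as a trait of synthetases. Yars2 over Yars read -1.58, -1.69 and -1.96 (log2) in wild-type against 0.25 and -0.014 in mutant libraries. Cars2 over Cars read -1.81, -1.61 and -1.65 against 1.18 and -0.81, so that in Tet2-mutant replicate 2 the mitochondrial transcript had the more counts. Lars2 over Lars read 3.33, 4.48 and 4.51 against 5.80 and 6.24. Hars2 over Hars was also above the wild type in both mutant libraries, at -1.11 and -1.32 against -1.52, -2.33 and -2.35. These last genes overlap at their starts on opposite strands and share 165 words of 31 bases.

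Serine ran the other way. Sars2 over Sars read -2.19, -2.34 and -2.74 in wild-type against -4.71 and -4.54 in mutant libraries, a change of -2.20, with Sars itself at 103, 127 and 164 against 202 and 156 CPM. Yars2, the mitochondrial tyrosyl enzyme, measured 27.98, 31.9 and 31.5 against 54.8 and 51.5 CPM (log2 fold change 0.80 ± 0.28, edgeR adjusted p = 0.0838). In the pairs for threonine, asparagine, arginine, alanine, isoleucine, tryptophan and valine the mutant libraries did not lie together on either side of the wild type. For threonine, asparagine, arginine, isoleucine and valine they lay on opposite sides of the wild-type range. The valine pair read -3.24 and -6.07 against -4.08, -4.15 and -4.09. With 3 libraries against 2, a two-sided exact permutation test cannot give a p below 0.2, so no p is given for the ratios.

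**Figure D4:**
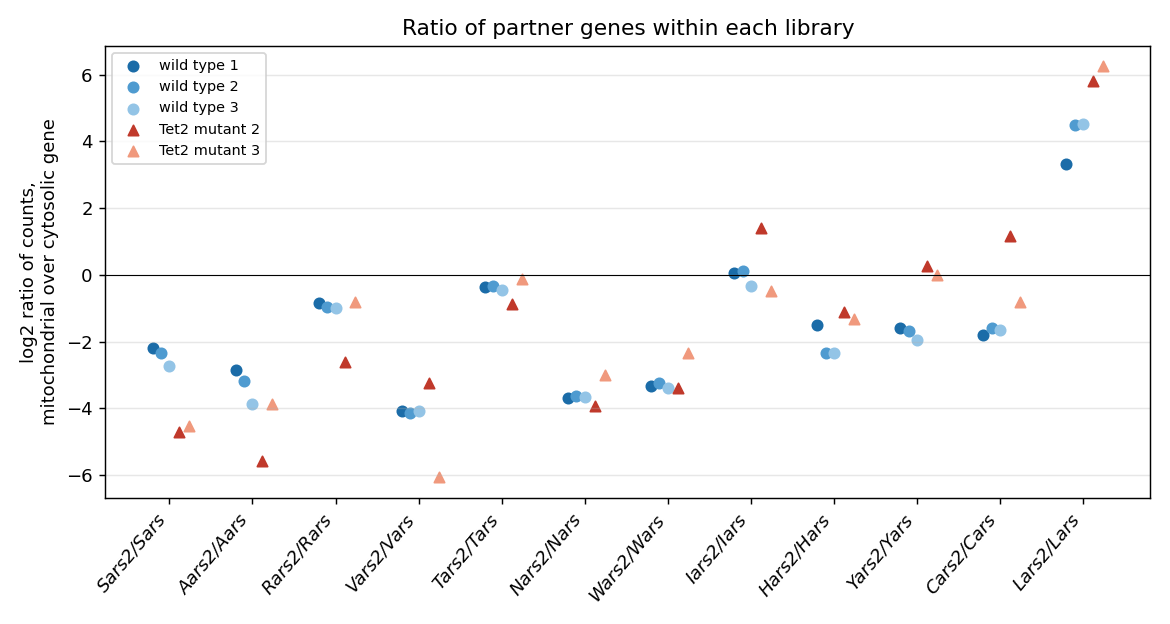
Log2 ratio of mitochondrial to cytosolic counts in each library for 12 pairs of members, for wild-type (circles) and Tet2-mutant (triangles) libraries. Sars2 over Sars lies below and Hars2, Yars2, Cars2 and Lars2 over their partners lie above all wild-type circles in both mutant libraries; no other pair has both triangles on the same side of its circles.

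The remaining mitochondrial members were not called. Fars2, the mitochondrial phenylalanyl enzyme, measured 15.2, 19.1 and 20.97 CPM in wild-type against 49.9 and 26.1 CPM in mutant libraries (log2 fold change 1.04 ± 0.39, edgeR adjusted p = 0.1). Nars2 had both mutant libraries above the wild type by a small step, at 31.8 and 33.5 against 20.9 to 29.2 CPM. Iars2 had both below, at 44.2 and 25.5 against 44.6 to 52.6 CPM. Tars2, Mars2 and Hars2 did not have both mutant libraries on the same side of the wild type. Their log2 fold changes of 0.14, 0.25 and 0.38 turned negative with total count scaling. Tarsl2, a further threonyl gene outside the list, measured 19.3 to 22.9 against 18.4 and 1.26 CPM.

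By position, Vars and Vars2 both lie on chromosome 17, 732 and 1386 kb from H2-Ab1, an MHC class II gene, and neither was called (adjusted p = 0.465 and 0.945). Some members share sequence with other annotated transcripts, which makes their counts less certain. The share of 31-base words was 23.6% for Iars2, mostly with Rab3gap2 on the opposite strand, 14.7% for Iars, mostly with the predicted gene Gm4849, and 14.4% for Aars, mostly with its neighbour Exosc6. It was 9.83% for Fars2, 8.53% for Cars2 and 8.46% for Farsb, mostly with genes on the opposite strand, and 2.75% for Cars, 4.29% for Yars and 0.959% for Sars2.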

How the data were processed

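The authors deposited gene counts, 1 file per library with 55291 symbols. Trimmomatic, STAR and mm10 are named per the submitters' processing notes. Their versions, the counting tool, the annotation and the strand setting were not given in the sources used here. RNA came from an RNeasy kit and libraries from a SMARTer kit, per the labels' protocols, which name no molecular identifiers.

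Counts were analysed with R 4.3.3, edgeR 4.0.16 (filterByExpr, TMM, quasi-likelihood test, Benjamini-Hochberg over 17062 genes), limma 3.58.1 and DESeq2 1.42.0. SE is the absolute log2 fold change over the root of F, and the common BCV was 0.507. Levels per length are CPM per kb of GENCODE M21 exon union (53188 symbols matched), in place of a TPM-like scaling that had been planned. Partner ratios added 0.5 to each count. On simulated counts of 16255 genes the test called 1, 21, 32 and 43 of 50 genes changed 2-, 4-, 8- and 16-fold, with 7 false calls. Members and lists were chosen with earlier results of these data known. Named genes were all members, up to 4 called genes per list by p (up to 2 where none was called), Atf4, Ifng, mt-Rnr1 and mt-Rnr2. Tet2, Ly6c2, Tapbp, Ido1, Nlrc5, Amy2a5, Ptf1a, Asns, Mrps12, Mars1 and Tarsl2 fall outside this rule. In the other lists edgeR called higher 4 of 8 T cell markers (DESeq2 and limma-voom: 5 and 4), 3 of 8 B cell markers (3 and 3) and 1 of 7 plasma cell markers (6 and 3), and lower 1 of 12 neutrophil (4 and 7) and 1 of 8 erythroid markers (1 and 4). mt-Rnr1 read 7.24 to 16 CPM (wild type) and 6.02 and 23.98 CPM (mutant). Alternatives were 3 scalings, 2 filters, 2 tests, the replicate block and each library left out.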

Additional observations from a re-analysis of the deposited data

How the results depend on the processing

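The replicate numbers 2 and 3 occur in both genotypes. Deviations from the genotype means correlated at -0.027 and -0.024 across genes for libraries of the same number. The 2 mutant libraries deviate from their mean by equal and opposite amounts, so this check cannot exclude that the numbers pair the samples. With the replicate block 752 genes were called higher and 232 lower, and 0 cytosolic and 0 mitochondrial members lower. Calls over all genes, 1801 higher and 755 lower, were 1419 and 1837 with upper-quartile scaling, 1181 and 2877 with total count scaling, 3059 and 1498 with no filter, 1395 and 472 with a filter of 1 CPM in 3 libraries, 2972 and 2137 with DESeq2 and 1837 and 1365 with limma-voom. Leaving out each library gave 616 to 4904 higher and 6 to 5958 lower. Cytosolic members called lower, 2 in the report, were 1 with RLE scaling, 1 with limma-voom and 6 with total count scaling. With a library left out 0 to 4 were lower and 0 to 2 higher. Mitochondrial members called lower, 1 in the report, were 2 with upper-quartile and total count scaling, the CPM filter, DESeq2 and limma-voom, and those called higher were 1 with no filter and with limma-voom and 2 with DESeq2. With a library left out 0 to 4 were lower and 0 to 5 higher. The interferon-gamma list had 17 to 20 calls.

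Medians of cytosolic and mitochondrial members were -0.38 and 0.034 with upper-quartile scaling, where that of all genes was -0.35, and -0.61 and -0.20 with total count scaling, where that of all genes was -0.58. With a library left out they were -0.28 to 0.12 and 0.23 to 0.48. Their difference was -0.45, -0.36 with limma-voom and -0.58 to -0.37 with a library left out. The median change of the partner ratio was 0.28 to 0.47 with a library left out.

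Some log2 fold changes of genes that were not called changed sign. With upper-quartile scaling they were -0.095 for Nars, -0.062 for Tars, -0.099 for Mars2 and -0.10 for Tars2. With total count scaling they were -0.31 for Nars, -0.090 for Sars, -0.29 for Tars, -0.10 for Vars, -0.17 for Wars, -0.17 for Hars2, -0.31 for Mars2, -0.13 for Nars2, -0.24 for Rars2, -0.35 for Tars2 and -0.025 for mt-Rnr1. With RLE scaling they were 0.0093 for Gars and 0.0049 for Tet2, with DESeq2 0.0092 for Gars and 0.0094 for Tet2, with limma-voom -0.059 for Mars2 and 0.055 for Tet2, and with the replicate block -0.12 for Rars2 and -0.14 for mt-Rnr1. With a library left out the range was -1.41 to 0.42 for Aars, -0.063 to 0.98 for Aimp2, -0.51 to 0.12 for Atf4, -0.27 to 1.21 for Cars2, -0.40 to 0.25 for Gars, -0.094 to 0.74 for Hars2, -0.25 to 0.14 for Kars, -0.40 to 0.70 for Mars2, -0.26 to 0.61 for Nars, -1.39 to 0.21 for Pars2, -0.47 to 0.13 for Qars, -0.94 to 0.81 for Rars2, -0.17 to 0.42 for Tars2, -1.02 to 0.53 for Tet2, -0.30 to 0.80 for Vars, -1.17 to 0.56 for Vars2, -0.067 to 0.60 for Wars, -0.13 to 1.61 for Wars2 and -0.93 to 1.07 for mt-Rnr1. Rars2 was called lower without Tet2-mutant replicate 3 and higher without replicate 2. The cause of these changes was not tested. Depth limits Tet2-mutant replicate 2 most, with a floor of 0.238 CPM.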
